A study of Mus musculus with 14 samples.

Results

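Claudins are the membrane proteins that form the strands of tight junctions, the seals between neighbouring epithelial cells. Some members build paired pores that let sodium and other small cations pass between cells, and others tighten the seal. Which claudins an epithelium expresses therefore sets what can leak across it, and the acid-exposed stomach lining and the absorptive small intestine are known for different sets. The expression of 10 claudin genes was followed here in stomach and small intestinal cells: Cldn2 and Cldn15, the pore-forming members of the intestine; Cldn18, the claudin of stomach and lung epithelium; the barrier-type members Cldn1, Cldn3, Cldn4, Cldn7 and Cldn8; and Cldn12 and Cldn23, whose roles are less settled. They were taken by symbol, each through the probe set with the highest mean where a gene had several, and all 10 had exactly 1 probe set. They stand among 18820 genes measured. Values are log2 expression values, on which a difference of 1 is a 2-fold change, and a gene's own level cannot be set against that of another gene because each probe set has its own brightness.

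The samples were 14 mouse cultures in 7 groups, each measured on 1 array. By their labels and the study's description of the sorted cells, all came from Cdx2-/fl / Lgr5-EGFP mice. Their Lgr5 allele is a knock-in that also encodes CreERT2 (Lgr5-EGFP-Ires-CreERT2). In these mice 1 allele of Cdx2, the homeobox factor that marks intestinal epithelium, was already inactive and the other was floxed. The 7 sorted arrays held Lgr5-EGFP-high stem cells (SCs) of clonal organoids. The study grew these in stomach medium (Sto med, with EGF, Noggin, R-spondin, Wnt, Fgf and gastrin), but describes 2 samples of each SC group. The medium of a further control SI array is therefore not settled by it. The groups were control SI SCs from small intestine (n = 3), control Sto SCs from stomach (n = 2) and Cdx2null SI SCs (n = 2). In the last group 4-hydroxytamoxifen had switched on the Cre enzyme, which is produced from the Lgr5 locus and thus in stem cells, and had removed the floxed allele. The controls had received no tamoxifen, so drug and deletion cannot be told apart. The 7 other arrays held whole, unsorted organoids, in which stem cells and their progeny were mixed. Their labels give Cdx2-/fl, whereas the study calls the organoids of its microarrays in both media wild-type. SI organoids (n = 3) and Sto organoids (n = 2) had been kept in SI med, which lacks Wnt, Fgf and gastrin, and 1 culture of each origin in Sto med. The study describes SI med as a medium in which Sto organoids differentiate, whereas control SI cultures can be passaged in it. Tissue and differentiation therefore cannot be told apart between Sto and SI organoids in SI med. Age and sex were not given in the labels, and nothing in them says whether cultures of 1 group came from separate mice, so the p-values measure the spread between these cultures.

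The library labelled SI organoids SI med 1 went against its label. Its Cdx2 value was 5.52, against 9.92 and 9.67 on the other SI organoid arrays in SI med and 4.72 and 5.57 in Sto organoids in the same medium. Over all genes it correlated at 0.928 and 0.904 with its own group, at 0.980 to 0.983 with the Sto organoids in Sto med, the Cdx2null SI SCs and the control Sto SCs, and at 0.950 and 0.959 with the Sto organoids in SI med. The claudin differences that include it are therefore given with and without it. The library labelled Cdx2null SI SCs 1 had a Cdx2 value of 8.41, against 4.88 on the second Cdx2null array and 8.94 to 10.05 in control SI SCs. By the study's methods the Cdx2 probes cover all of its exons, including sequence that the deletion leaves in place, so a signal here is no check of the deletion. The main SC results are given without this library too. The epithelial marker Cdh1 (E-cadherin) lay between 11.46 and 11.99 on all 14 arrays. Of other cell types, 1 of 6 endothelial genes, 1 to 3 of 7 mesenchymal genes and 1 to 3 of 7 immune genes lay above the array median on each array, with mean levels of 3.90 to 4.39, 4.31 to 4.72 and 4.35 to 4.97. The defining markers Pecam1 and Cdh5 of endothelium (3.39 to 4.24), Ptprc of leukocytes (3.75 to 4.33) and Krt5 and Trp63 of basal squamous cells (3.92 to 4.55) were below the array medians of 4.72 to 5.05. Others moved with the groups. Cd68, a lysosomal protein known from macrophages, was 1.72 higher in control Sto than in control SI SCs (limma adjusted p = 0.00374). Without SI organoids SI med 1, Cd68 and Esam, an endothelial adhesion molecule, were 2.86 and 1.92 higher in control SI SCs than in SI organoids in SI med (limma adjusted p = 0.000220 and 0.00251). Lyz2, another of the 7 immune genes, went the other way in that comparison (limma adjusted p under 0.05). Their part in the claudin values was not tested.

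Cldn15 was on in small intestinal cells and near the array median in stomach cells, and in Cdx2null SI SCs it lay near the stomach values. The protein forms the main cation pore of the small intestine, through which sodium returns to the lumen. Control SI SCs had 9.03, 10.35 and 8.36. The Cdx2null SI SCs had 5.07 and 5.01, and control Sto SCs 4.52 and 4.73. No array of either group reached the lowest control SI array. The SD was 1.01 in control SI SCs, the widest of the 3 SC groups, and 0.0440 in Cdx2null SI SCs. Cldn15 was lower in Cdx2null than in control SI SCs (log2 difference -4.21, SE 0.51, limma adjusted p = 0.0119). It was lower by a similar amount in control Sto SCs (log2 difference -4.62, SE 0.51, limma adjusted p = 0.00653). The lower values lay near or below the array medians, so no fold is given. Both comparisons used the same control SI arrays. Without the library labelled Cdx2null SI SCs 1 the first difference was -4.24, with a limma adjusted p of 0.0479. Without Cdx2null SI SCs 2 it was -4.17 and no longer passed the threshold, at an adjusted p of 0.0826. Without control Sto SCs 1 the second was -4.52, with an adjusted p of 0.0520.

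In organoids the same order of Cldn15 was seen on all arrays but the doubtful one. SI organoids in SI med 2 and 3 had 11.21 and 10.44, and the SI organoid array in Sto med had 9.78. The Sto organoids had 4.47 and 4.10 in SI med and 4.16 in Sto med. The library labelled SI organoids SI med 1 had 4.57, among the stomach arrays. With all 3 SI organoid arrays the difference between Sto and SI organoids in SI med was -4.45 with an SE of 2.10, and it did not pass the test (limma adjusted p = 0.388). Without that library it was -6.54 with an SE of 0.31 and did (limma adjusted p = 0.000126), with both Sto arrays below their medians. The 250 bases before the RefSeq start site of Cldn15 (GRCm38.p6, chr5:136967619-136967868, plus strand) are shown because this was the claudin called lower in both SC comparisons with control SI SCs. None of the 3 motifs searched, described with the promoters further on, occurs in it, so no base is in capitals.

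Cldn15: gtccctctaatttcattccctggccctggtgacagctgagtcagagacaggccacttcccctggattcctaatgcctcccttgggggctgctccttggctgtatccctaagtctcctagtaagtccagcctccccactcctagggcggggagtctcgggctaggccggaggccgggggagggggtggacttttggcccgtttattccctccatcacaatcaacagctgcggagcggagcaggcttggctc

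Cldn18 ran the opposite way. It is the claudin of the gastric lining, where it is known for holding back acid, and the study itself counted it among its gastric markers, so its direction in the SCs is not independent evidence. Control SI SCs had 5.49, 7.31 and 7.65. The Cdx2null SI SCs had 10.91 and 11.95, and control Sto SCs 12.27 and 12.00. All 4 of these arrays lay above every control SI array, by more than 3 on the log2 scale. Cldn18 was 4.61 higher in Cdx2null than in control SI SCs (SE 0.64, 24.4-fold, limma adjusted p = 0.0190) and 5.32 higher in control Sto SCs (SE 0.64, 39.8-fold, limma adjusted p = 0.00874). Without the library labelled Cdx2null SI SCs 1 the first difference was 5.13, with a limma adjusted p of 0.0398. It was 4.09 without Cdx2null SI SCs 2, with an adjusted p of 0.133, and the second difference was 5.18 without control Sto SCs 1 (adjusted p = 0.0640) and 5.45 without control Sto SCs 2 (adjusted p = 0.0549).

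In organoids Cldn18 was at its highest and its lowest of the whole series. Sto organoids in SI med had 12.94 and 12.88, and those in Sto med 12.19. SI organoids in SI med 2 and 3 had 5.42 and 3.94, and those in Sto med 5.12. The library labelled SI organoids SI med 1 had 12.23, again among the stomach arrays. With it the difference in SI med was 5.71 with an SE of 2.55 (limma adjusted p = 0.366). Without it the difference was 8.23 with an SE of 0.47 (limma adjusted p = 0.000232). The 3.94 of SI organoids 3 was below its array median.

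**Figure D1:**
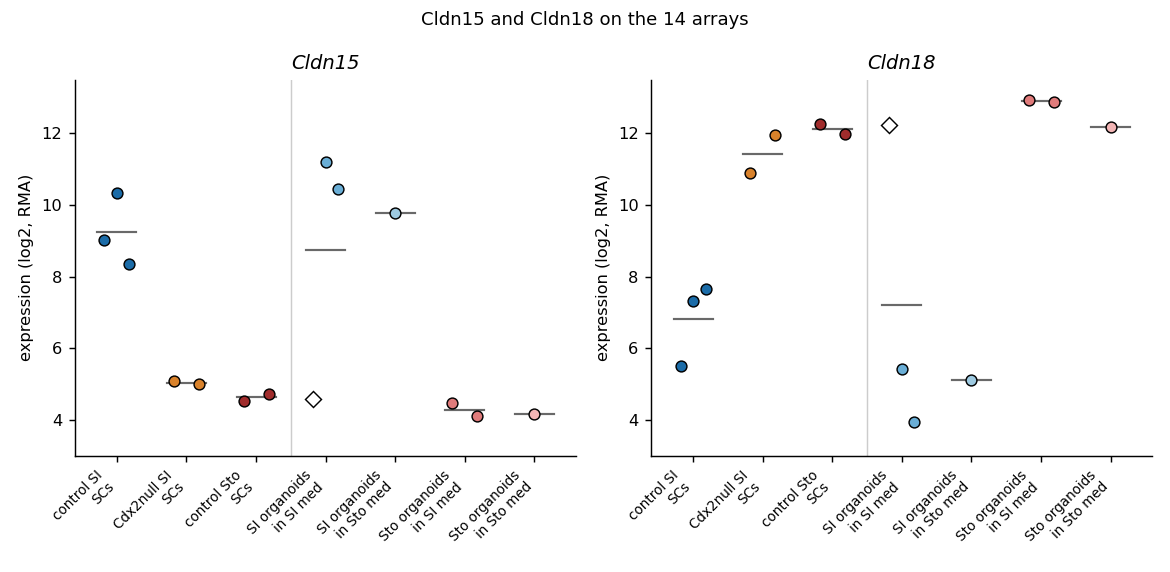
Log2 expression values of Cldn15 (left) and Cldn18 (right) on each of the 14 arrays, by group; points are arrays, horizontal lines group means, and the white diamond is the library labelled SI organoids SI med 1. Cldn15 lay at 8.36 to 11.21 on the 6 other small intestinal control arrays and at or below 5.07 elsewhere, and Cldn18 at or below 7.65 on those arrays and at or above 10.91 elsewhere.

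Cldn18 is known to be transcribed from separate promoters in lung and stomach, and RefSeq gives start sites for both. The array's single probe set does not tell the transcripts apart. Both windows of 250 bases are shown (GRCm38.p6, minus strand) because this was the claudin called higher in both SC comparisons with control SI SCs, the one further upstream at chr9:99717268-99717517 and the other at chr9:99710064-99710313. Capitals mark GTTAAT, a motif of the HNF1 type, in the first and ACTTTG, the reverse complement of CAAAGT of the HNF4 type, in the second.

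Cldn18, upstream start: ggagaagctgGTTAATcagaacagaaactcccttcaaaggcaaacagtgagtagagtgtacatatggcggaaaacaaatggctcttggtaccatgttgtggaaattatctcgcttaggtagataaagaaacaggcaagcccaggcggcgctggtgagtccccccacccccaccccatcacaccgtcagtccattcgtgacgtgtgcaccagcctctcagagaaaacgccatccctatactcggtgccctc
Cldn18, downstream start: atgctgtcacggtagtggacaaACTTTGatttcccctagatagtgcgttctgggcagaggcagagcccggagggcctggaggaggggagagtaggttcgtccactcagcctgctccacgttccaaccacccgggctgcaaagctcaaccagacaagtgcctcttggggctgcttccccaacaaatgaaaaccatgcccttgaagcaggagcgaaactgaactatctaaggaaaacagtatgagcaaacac

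Across the 10 claudins, Cldn15 and Cldn18 were the 2 called in Cdx2null against control SI SCs, where a call needed a limma adjusted p under 0.05 over all 18820 genes and a fold of at least 2. Over all genes 1.52% were called in this comparison. The same 2 claudins were called in control Sto against control SI SCs, where 2.86% of all genes were. The median log2 difference of the 10 was 0.07 and -0.03, against 0.03 and 0.03 over all genes. Between Cdx2null SI SCs and control Sto SCs, 0 of 10 were called and 0% of all genes. At an unadjusted p under 0.05, 0 of 10 claudins and 286 genes passed in that comparison. The methods' t-test called 15 genes there at an unadjusted p, and after Benjamini-Hochberg adjustment it called 0 in each comparison it was run on. The intervals nevertheless leave room for differences: the 95% confidence interval was -2.35 to 0.94 for Cldn18 and -0.91 to 1.74 for Cldn15.

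Other measures moved with these 2 genes in the SCs. Of 6 measured genes of intestinal identity, 4 were lower in each of the Cdx2null and Sto SCs than in control SI SCs, as were 4 of 7 enterocyte genes. Of 7 genes of gastric identity, 5 were higher in Cdx2null SI SCs and 6 in Sto SCs. Of 7 secretory genes, 1 was higher and 2 lower in Cdx2null SI SCs, and 0 and 2 in Sto SCs. Over all genes 1.52% and 2.86% were called in these comparisons. The identity lists hold Cdx2 itself and markers that the study used, so their directions are not independent evidence. The mean level of the enterocyte genes was 5.65 to 6.61 in control SI SCs and 3.72 to 3.85 in the 4 other SC arrays. Fewer cells of a type and less RNA per cell cannot be told apart in such bulk samples. Xist, the X-inactivation RNA of female cells, was at 3.35 and 3.77 on control SI SCs 1 and 3 and at 11.31 to 12.05 on the 5 other SC arrays, so sex moved with the groups. With a term for sex, Cldn15 stayed called in both comparisons, whereas Cldn18 did not, at 4.12 (limma adjusted p = 0.142) and 4.82 (limma adjusted p = 0.0736).

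**Figure D2:**
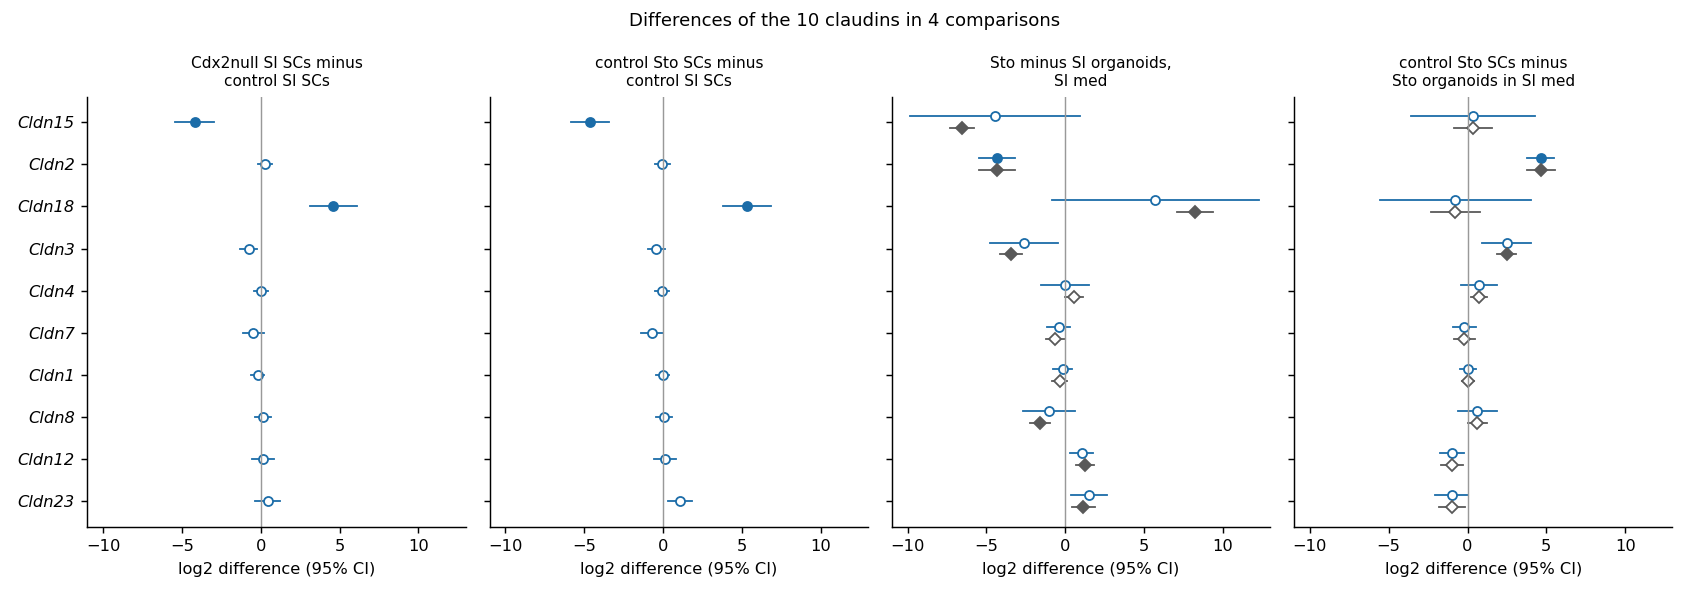
Log2 differences of the 10 claudins in 4 comparisons, with 95% confidence intervals; circles include all arrays, diamonds leave out the library labelled SI organoids SI med 1, and filled symbols passed the test. Only Cldn15 and Cldn18 are filled in both SC comparisons on the left, and only Cldn2 is a filled circle in each of those on the right.

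Cldn2 told the tissues apart in organoids in SI med but not in SCs. Its protein forms a pore for sodium and water and is known from the crypt base of the intestine. The SC groups lay close together, with 10.35, 10.23 and 9.77 in control SI SCs, 10.44 and 10.33 in Cdx2null SI SCs, and 10.08 and 10.06 in control Sto SCs. The difference of control Sto SCs from control SI SCs was -0.05 (95% confidence interval -0.51 to 0.41), and that of Cdx2null SI SCs was 0.27 (-0.20 to 0.73). In unsorted Sto organoids in SI med it stood far lower, at 4.81 and 6.03. SI organoids in SI med had 9.79, 10.14 and 9.36, with no overlap. Here the library that went against its label, at 9.79, lay between its group's other arrays.

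Cldn2 was lower in Sto than in SI organoids in SI med (log2 difference -4.34, SE 0.44, limma adjusted p = 0.0347), where 1 of the 2 Sto arrays was below its median. It was the 1 claudin of 10 called with all arrays, where 1.41% of all genes were. The call was lost when any array of the comparison other than SI organoids 1 was left out, with differences of -4.95 to -3.73, and held without SI organoids 1 at -4.33 (limma adjusted p = 0.00256). Against the sorted cells of the same organ, Cldn2 was 4.65 higher in control Sto SCs than in Sto organoids in SI med (SE 0.38, limma adjusted p = 0.000354, and 0.000126 with SI organoids 1 out of the fit), again as 1 of 10 claudins, beside 6.03% of all genes. This contrast held the sort and the medium together, since the SCs came from Sto med, and these cannot be told apart. In small intestine the corresponding difference was 0.36 (95% confidence interval -0.34 to 1.05), and 0.37 (-0.43 to 1.16) without SI organoids 1. The tissue difference in SCs therefore differed from that in organoids by 4.29 (SE 0.49, limma adjusted p = 0.00816), a difference called for 1 of 10 claudins and 0.845% of all genes. Leaving out control Sto SCs 1 brought its adjusted p to 0.0512, and without SI organoids 1 it was 4.28 (limma adjusted p = 0.00199).

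The Sto organoid array in Sto med had a Cldn2 value of 8.55, between its SI med counterparts and the SCs. Fitted within Sto organoids, with the lone array assumed to vary like the other groups, Sto med was 3.13 above SI med. That difference had an adjusted p of 0.165 with all 7 organoid arrays and of 0.0390 in limma without SI organoids SI med 1, when 4.33% of all genes were called (0.106% with all arrays). The SI organoid array in Sto med had 10.15, and the difference between media there was 0.39 (SE 0.55), and 0.41 (SE 0.56) without that library. With origin and medium as additive terms the medium difference was 1.68 (SE 0.67, limma adjusted p = 0.511), and 1.77 (SE 0.70, limma adjusted p = 0.324) without it. Lgr5, the gene of the sort, moved with Cldn2 on these arrays. Its Sto organoid values were 4.20 and 4.32 in SI med and 9.29 in Sto med, and it stood at 9.49 to 11.56 on the 11 other arrays. Xist also differed, at 11.55 and 11.39 in Sto organoids in SI med and 3.23 in Sto med, and Cldn2 lies on the X chromosome. The part of either in the Cldn2 values was not tested.

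**Figure D3:**
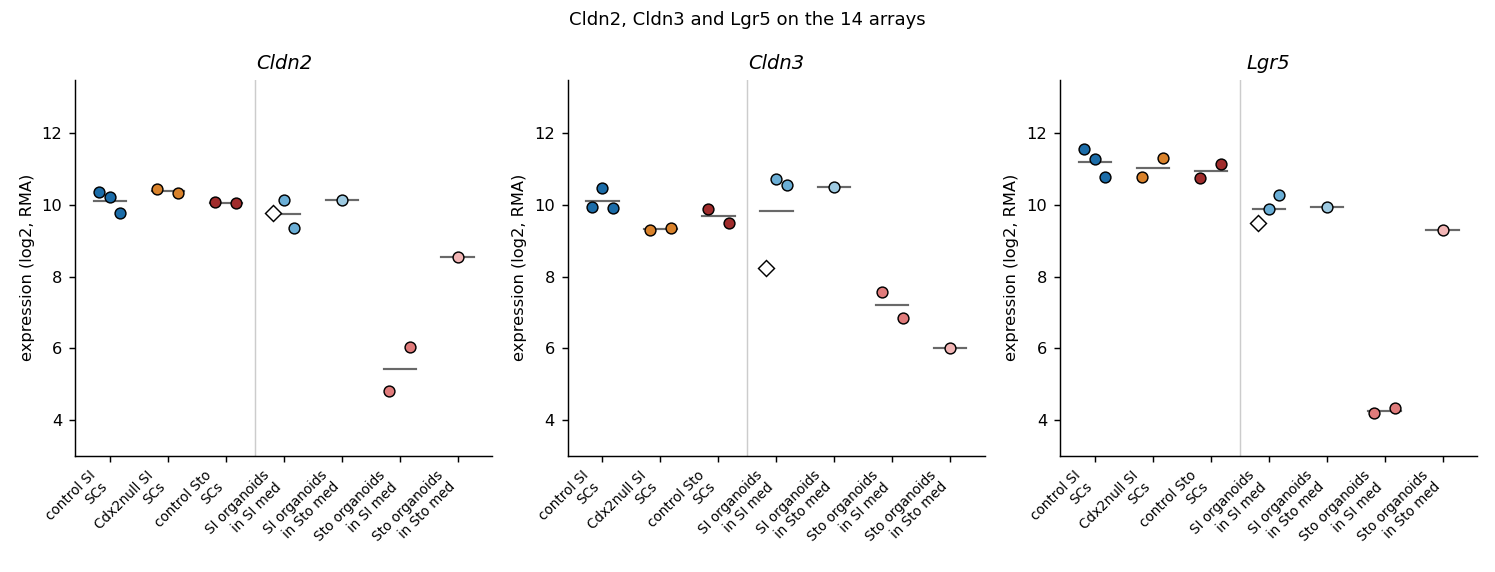
Log2 expression values of Cldn2, Cldn3 and Lgr5 on each of the 14 arrays, by group; points are arrays, horizontal lines group means, and the white diamond is the library labelled SI organoids SI med 1. Cldn2 and Lgr5 were both lowest in the 2 Sto organoid arrays in SI med, whereas Cldn3 was lowest, at 6.01, in the Sto organoid array in Sto med.

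The 250 bases before the start of Cldn2 (GRCm38.p6, chrX:139800558-139800807, plus strand) follow, as this was the claudin called with all arrays between control Sto SCs and Sto organoids. Capitals mark TTTATG, the reverse complement of the CDX-type core CATAAA.

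Cldn2: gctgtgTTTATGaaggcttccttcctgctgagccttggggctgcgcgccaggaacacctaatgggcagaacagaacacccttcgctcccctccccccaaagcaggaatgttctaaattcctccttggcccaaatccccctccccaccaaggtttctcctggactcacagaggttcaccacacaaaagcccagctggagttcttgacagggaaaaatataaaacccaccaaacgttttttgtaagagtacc

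Among the barrier-type members, Cldn3 was the one whose group means spread most, over 4.49 on the log2 scale. It was high in all sorted cells, with 9.96, 10.47 and 9.91 in control SI SCs, 9.31 and 9.37 in Cdx2null SI SCs, and 9.88 and 9.50 in control Sto SCs. The Cdx2null arrays lay below all 3 control SI arrays (log2 difference -0.78, SE 0.22, limma adjusted p = 0.192). That was below the fold and the p needed for a call. Sto organoids had 7.57 and 6.84 in SI med and 6.01 in Sto med, below every SC array. SI organoids in SI med 2 and 3 had 10.72 and 10.57 and the array in Sto med 10.50. The library labelled SI organoids SI med 1 had 8.23, between the 2 tissues.

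With that library the tissue difference of Cldn3 in SI med was -2.63 (SE 0.84, limma adjusted p = 0.224), and without it -3.44 (SE 0.28, 10.8-fold, limma adjusted p = 0.000987). Control Sto SCs exceeded Sto organoids in SI med by 2.49, with an adjusted p of 0.0659 in the fit with all 14 arrays. The same difference passed in limma once SI organoids SI med 1 was left out of the fit (adjusted p = 0.000518), although it is in neither group. The difference between the tissue effects in SCs and organoids was 2.21 (limma adjusted p = 0.436) with the library and 3.01 (limma adjusted p = 0.00204) without. Unlike for Cldn2, the Sto med array did not lie nearer to the SCs: the difference between media within Sto organoids was -1.20 (SE 1.13, and 0.34 without the library, limma adjusted p = 0.130).

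Cldn4 and Cldn7, barrier claudins found along most simple epithelia, were on everywhere. Cldn4 lay between 9.95 and 12.06 on the 14 arrays, and the 7 SC arrays covered 11.27 to 11.71 with all 3 groups overlapping. Its difference between Cdx2null and control SI SCs was 0.02 (95% confidence interval -0.43 to 0.47). Its lowest values were the 10.39 and 9.95 of SI organoids in SI med 2 and 3. The third library of that group had 11.88, and the SI organoid array in Sto med 12.06. Without SI organoids SI med 1, control SI SCs were 1.35 above SI organoids in SI med (SE 0.20, limma adjusted p = 0.00309). With it that difference was 0.78 (SE 0.41, limma adjusted p = 0.638). Likewise Sto med was 1.90 above SI med within SI organoids (SE 0.27, limma adjusted p = 0.0307) without that library, when 2.04% of all genes were called, and 1.33 with it, with an adjusted p near 1 (0.999).

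Cldn7 lay between 9.51 and 10.94. Control SI SCs had 10.67, 10.27 and 10.41, and control Sto SCs 9.98 and 9.51, without overlap, yet the difference of -0.70 (SE 0.29) had a limma adjusted p of 0.300. The Cdx2null SI SCs, at 10.40 and 9.55, spanned both. Its tissue difference in organoids was -0.43 (SE 0.28, limma adjusted p = 0.532), and -0.62 (SE 0.24, limma adjusted p = 0.146) without SI organoids SI med 1.

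Cldn1 and Cldn8 were the dim members. Cldn1, a barrier claudin best known from skin, ran from 3.00 to 3.73 and lay below the array median on all 14 arrays, so nothing can be read from its small differences. Cldn8, known from the distal colon and the kidney's collecting duct, ran from 4.44 to 6.55. Its SC groups overlapped, at 4.93 to 5.57 in control SI SCs, 5.26 and 5.34 in Cdx2null SI SCs, and 5.10 and 5.36 in control Sto SCs. Its highest values, 6.55 and 5.87, were those of SI organoids in SI med 2 and 3, while SI organoids 1 had 4.44 and Sto organoids in SI med 4.56 and 4.65. Without that library Cldn8 was lower in Sto than in SI organoids (log2 difference -1.61, SE 0.27, limma adjusted p = 0.0130), with both Sto arrays below their medians. It was also lower in control SI SCs than in SI organoids (-1.05, SE 0.25, limma adjusted p = 0.0356). With it neither passed, at -1.02 (limma adjusted p = 0.513) and -0.46 (limma adjusted p = 0.873).

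Among the 10 claudins followed, Cldn12 and Cldn23 were the 2 besides Cldn18 with their highest values in Sto organoids in SI med. Cldn12 had 9.98 and 9.91 there and 8.39 to 9.30 on all other arrays, among them 8.77 in Sto organoids in Sto med. Its tissue difference in SI med was 1.04 (SE 0.28, limma adjusted p = 0.175), and 1.24 (SE 0.23, limma adjusted p = 0.0190) without SI organoids SI med 1. The SC groups overlapped, with 8.39 to 9.26 in control SI SCs, 8.78 and 9.13 in Cdx2null SI SCs, and 8.69 and 9.25 in control Sto SCs.

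Cldn23 had 8.65 and 8.07 in Sto organoids in SI med, 6.66 in Sto med and 6.13 to 7.49 in the 4 SI organoid arrays. Its tissue difference in SI med was 1.51 (SE 0.45, limma adjusted p = 0.205), and 1.15 (SE 0.29, limma adjusted p = 0.0494) without that library. Among the 10 claudins followed, it was the only one besides Cldn15 and Cldn18 to differ by at least 1 between control Sto and control SI SCs. Its values there were 7.90 and 6.81 against 6.59, 6.23 and 5.99. These arrays did not overlap, but the difference of 1.09 (SE 0.33) did not pass (limma adjusted p = 0.157). The Cdx2null SI SCs had 6.70 and 6.69, above all 3 control SI arrays and below both control Sto arrays. Their difference from control SI SCs was 0.43 (SE 0.33, limma adjusted p = 0.739).

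Krt4 and Ivl, genes of suprabasal squamous epithelium, were also highest in Sto organoids in SI med, at 11.11 and 10.98 and at 10.40 and 11.08, against 3.29 to 10.50 and 3.45 to 7.23 on the other arrays. The mean of the 7 squamous genes was 6.09 and 6.41 there and 3.85 to 5.38 in SI organoids in SI med, with the basal markers Krt5 and Trp63 below the array medians throughout. Their part in the values of Cldn12, Cldn23 and the other claudins was not tested.

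**Figure D4:**
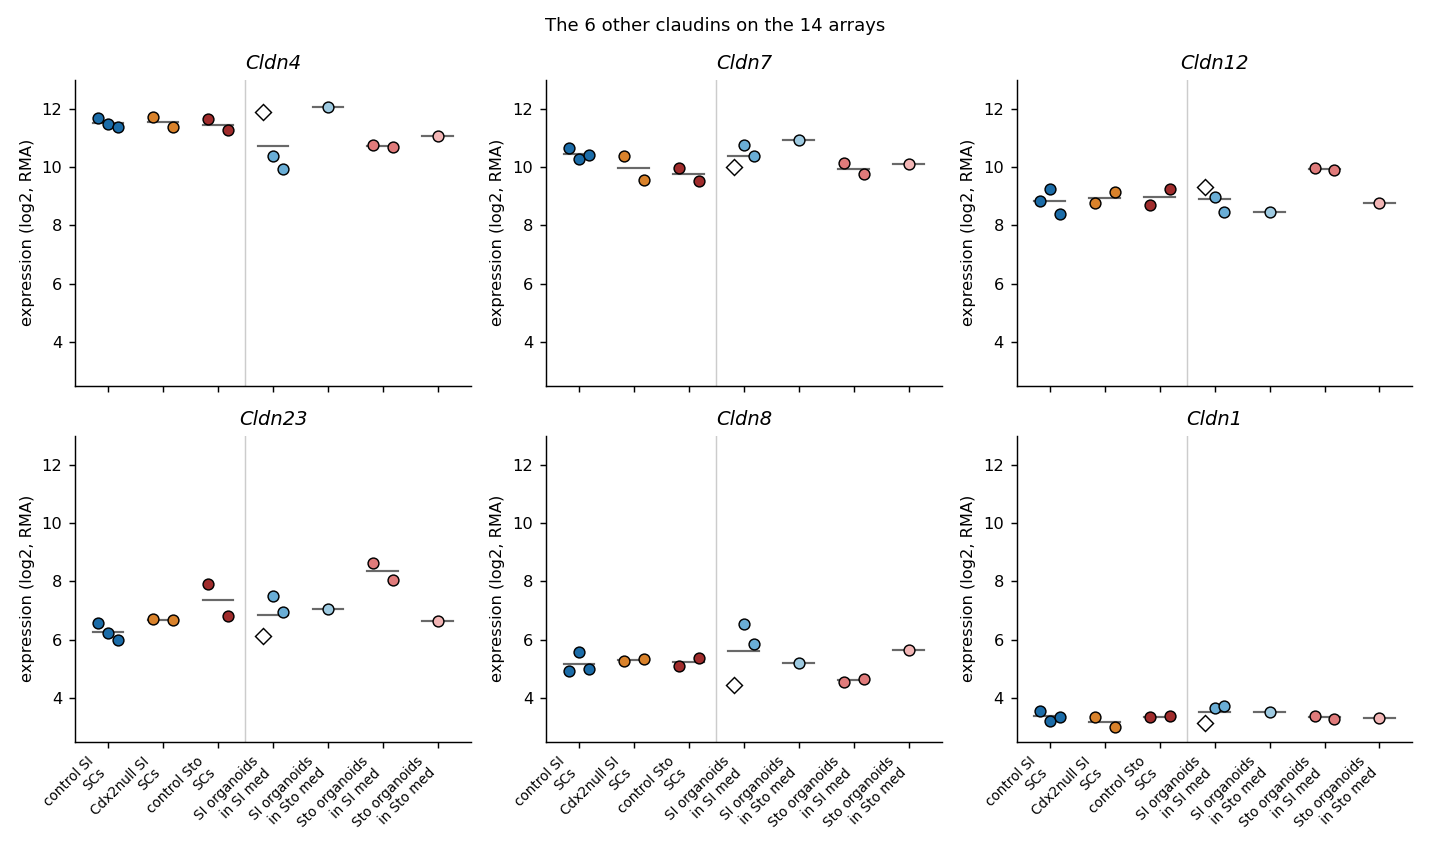
Log2 expression values of Cldn4, Cldn7, Cldn12, Cldn23, Cldn8 and Cldn1 on each of the 14 arrays, by group; points are arrays, horizontal lines group means, and the white diamond is the library labelled SI organoids SI med 1. Control Sto and control SI SCs do not overlap for Cldn7 and Cldn23, without a call, and Cldn12 (9.98 and 9.91) and Cldn23 (8.65 and 8.07) are highest in Sto organoids in SI med.

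Taking the library that went against its label out of the comparison of Sto with SI organoids in SI med, 7 of 10 claudins were called, Cldn12, Cldn18 and Cldn23 higher and Cldn2, Cldn3, Cldn8 and Cldn15 lower, beside 13.9% of all genes. Between control SI SCs and the SI organoids in SI med, 0 of 10 were called with all arrays (0.159% of all genes) and 2 without it (5.11%), Cldn4 higher and Cldn8 lower in SCs. Between control Sto SCs and Sto organoids in SI med, leaving it out of the fit added Cldn3 to Cldn2 (9.23%). For the difference between the tissue effects, Cldn2, Cldn3 and Cldn8 were called without it (4.54%). For medium, 0 of 10 were called with or without it in the additive fit, beside 0% and 0.0266% of all genes. At an unadjusted p under 0.05, with all arrays, 0 of 10 claudins passed between control SI SCs and the SI organoids and 2 for medium, beside 1776 and 1816 of all genes.

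The other tight junction genes were counted in the same way. Of 25 further claudins and claudin-like genes 19 were measured, and 0 were called in any of the 8 comparisons with all arrays, beside 0% to 6.03% of all genes. Most lay near the array median or below, among them the endothelial claudin Cldn5 (4.07 to 4.71) and Cldn10 (3.01 to 4.35). Cldnd1, a claudin-like gene, lay between 9.57 and 10.46. Cldn9 was 1.08 higher in Sto than in SI organoids in SI med without SI organoids SI med 1 (limma adjusted p = 0.0359), the 1 of 19 called there beside 13.9% of all genes, but below the median on every array. Cldn6, picked out here after its values were seen, was at 6.83 on control Sto SCs 2 and between 3.56 and 4.98 on the 13 others.

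Of 36 other tight junction genes 32 were measured. Ocln (occludin), Tjp1 and Tjp3 (the scaffold proteins ZO-1 and ZO-3) lay between 8.88 and 10.41, 9.02 and 10.64, and 9.96 and 10.66 on all arrays, and none of them was called. In the SC comparisons 0 of 32 were called, beside 0% to 2.86% of all genes. Their median log2 difference was 0.16 in Cdx2null and 0.17 in Sto against control SI SCs, beside 0.03 over all genes in each. Igsf5, a junctional adhesion molecule, was lower in control Sto SCs than in Sto organoids in SI med (log2 difference -1.08, SE 0.22, limma adjusted p = 0.0178, and 0.0140 without SI organoids SI med 1 in the fit). It was the 1 call of 32 with all arrays, beside 6.03% of all genes in that comparison. Without SI organoids SI med 1, 3 of 32 were higher in Sto than in SI organoids in SI med and 2 lower, shares close to the 7.57% and 6.29% of all genes. Wnk4, a kinase that acts on claudins, had the lowest difference (log2 difference -2.40, SE 0.19, limma adjusted p = 0.000779) and Arhgef2, a guanine nucleotide exchange factor, was the call with the smallest adjusted p upwards (1.38, SE 0.18, adjusted p = 0.00564). Of 16 adherens junction and desmosome genes 1 was called in the SC comparisons: Cdh17, the liver-intestine cadherin and a known marker of intestinal epithelium, was lower in control Sto than in control SI SCs (log2 difference -6.19, SE 0.80, limma adjusted p = 0.0116). Over all genes 2.86% were called in that SC comparison. Between Sto and SI organoids in SI med without SI organoids SI med 1, Nectin4 was called higher and Cdh17, Nectin1 and Nectin3 lower. Those were 1 and 3 of 16, beside 7.57% and 6.29% of all genes. Dsc2, a desmosomal cadherin, was lower in control Sto SCs than in Sto organoids in SI med (log2 difference -1.24, SE 0.29, limma adjusted p = 0.0324, and 0.0159 without SI organoids SI med 1 in the fit). It was the 1 of 16 called there with all arrays, beside 6.03% of all genes.

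The genes whose profiles were most like those of a claudin were listed for the 5 members whose group means spanned at least 2 on the log2 scale. These are Pearson correlations over 14 arrays that share groups, given as a description. Closest to Cldn15 were Aldh1b1, an aldehyde dehydrogenase, Gucy2c, the guanylin receptor, and Ush1c, a microvillar scaffold protein, at 0.993, 0.989 and 0.989. Closest to Cldn18 were Nexmif, the mucin Muc1 and Cavin2, at 0.970, 0.965 and 0.964. Cldn2 was closest to Cftr, the chloride channel, at 0.982, and to the stem cell genes Lgr5 and Ascl2, at 0.964 and 0.961. Cldn3 (Tox, Irf8 and Dnm1, 0.895 to 0.911) and Cldn23 (Atg9a, Gal3st1 and Arfgap3, 0.905 to 0.935) had looser matches. Among the claudins themselves, the correlation of Cldn15 with Cldn18 was -0.964, and that of Cldn2 with Cldn3 was 0.685.

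RefSeq promoter windows of 300 bases, 250 before and 50 after a start, were at hand for 8 of the 10 genes, 12 windows in all. They were searched on both strands for CATAAA (CDX type), GTTAAT (HNF1 type) and CAAAGT (HNF4 type), and no matches overlapped. The CDX-type core was found in 1 of the 12, that of Cldn2, with its first letter 244 bases before the start, and in 11.9% of all 32851 windows. GTTAAT was found in the upstream window of Cldn18, 240 bases before the start, and in that of Cldn1, beside 7.10% of all windows. CAAAGT was found in the downstream window of Cldn18 and in 1 of 3 overlapping windows of Cldn12, beside 14.4% of all windows. A match is a run of letters and not a site of binding, and its absence elsewhere says only that these letters are not in the window.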

How the data were processed

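Mouse Gene ST 1.1 arrays from Affymetrix were used for the RNA of 14 samples, and the authors deposited log2 expression values for 35556 probe sets after RMA-sketch summarisation in Affymetrix Power Tools (version not given in the sources used here). This method corrects background and brings the arrays it is run on to a shared distribution, and background signal compresses the folds of dim genes. The values were used as deposited. On SI organoids in SI med 3 and control SI SCs 3, 100% of values were the log2 of a signal rounded to 1 decimal (relative tolerance 3e-06), against 1.75% to 2.02% elsewhere, and their upper quartiles were 7.57 and 7.50 against 7.79 to 7.90. Why these 2 arrays differ, and whether they were normalised with the others, is not given in the sources used here. The number of arrays limits the precision.

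Probe sets were named from the platform annotation (21218 had 1 symbol, 1881 several and 12457 none), with symbols updated by Entrez ID from a RefSeq table of GRCm38.p6. Those without exactly 1 gene were left out, and the one with the highest mean was kept per gene, which left 18820 genes. Groups followed the sample titles. Comparisons were fitted with limma 3.58.1 in R 4.3.3, 2-sided, with Benjamini-Hochberg adjustment over all genes: the 3 among SCs on 7 arrays, those of origin and medium on 7 organoid arrays, and the rest on all 14. A call needed an adjusted p under 0.05 and a log2 difference of at least 1. Errors are limma's SE unless named SD. The script was tested on simulated data. The alternatives were other normalisations and filters, the methods' t-test, a replicate block, other sets of arrays and leaving out single arrays.

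The claudins and gene lists were chosen with earlier results of these data known. Named besides the claudins were Cdx2, the called genes of the junction lists (at most 4 per direction), Ocln, Tjp1, Tjp3, Cldn5, Cldn10 and Cdh1 (a further gene of this rule is not reported here), the 3 genes most like each claudin that varied, and markers of intestinal, gastric, enterocyte, secretory, squamous, endothelial, mesenchymal and immune cells. Cldn6, Cldn9, Cldnd1, Igsf5, Xist and Lgr5 are given for their values or calls. Promoter windows came from RefSeq (GRCm38.p6).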

Additional observations from a re-analysis of the deposited data

Results flagged for a closer look

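The difference of Cldn2 between stomach and small intestine was not the same in sorted SCs as in whole organoids in SI med. Control Sto SCs differed from control SI SCs by -0.05 on the log2 scale, and Sto organoids from SI organoids by -4.34, and the test of the difference between them gave 4.29 (SE 0.49, limma adjusted p = 0.00816, all 14 arrays), and 4.28 (limma adjusted p = 0.00199) without SI organoids SI med 1. Both Sto organoid arrays in SI med lay below all 3 SI organoid arrays, and both control Sto SC arrays lay within the range of the control SI SC arrays. No group held the 4 arrays that a search for outlying arrays within a group needs.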

How the results depend on the processing

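Of 114 refits of a called claudin under an alternative setting, 89 kept the call and direction and 25 kept the direction without the call. In none did a called claudin turn. Many of these settings keep the group means, so the direction could not turn there. The mean of probe sets changes no claudin value, since each claudin had 1 probe set. In the fits on 7 arrays, leaving out the arrays with rounded values repeats a fit that leaves out 1 array. The tally therefore does not count separate checks. For Cldn15 and Cldn18 in Cdx2null against control SI SCs, where 2 claudins were called, the methods' t-test after Benjamini-Hochberg adjustment called 0, a fit of all 14 arrays called 0, and a term for sex 1 (Cldn15). For control Sto against control SI SCs these gave 0, 0 and 1. Over all 18820 genes the same settings called 0, 4 and 207 in the first comparison, where the main fit called 287. In the second they called 0, 29 and 262, where the main fit called 538. The claudin counts are to be read beside these. The fit of all arrays but SI organoids SI med 1 called 2 in each, beside 343 and 622 of all genes, so that array's presence in the fit cost the calls. Leaving out 1 array at a time gave 0 to 2 called claudins in both comparisons. Between Sto and SI organoids in SI med 1 claudin was called, beside 266 of all genes. The replicate block called 0 claudins (Cldn2 at -4.54, limma adjusted p = 0.281) and 0 genes, as did leaving out the 2 arrays with rounded values. The methods' t-test called 2 at an unadjusted p, beside 1022 genes, and 0 after adjustment, beside 0. All 14 arrays in 1 fit called 2 (Cldn2 and Cldn3), beside 1148 genes. Without SI organoids 1, 2609 genes were called. Leaving out 1 array at a time gave 0 to 7, and SI organoids 1 and 3 together 4. For control SI SCs against SI organoids in SI med, where 0 were called, leave-one-out gave 0 to 2 and those 2 libraries together 2. For control Sto SCs against Sto organoids in SI med, where 1 was called, median centring, the filter on dim genes and the methods' t-test at an unadjusted p gave 2 each (Cldn2 and Cldn3), that test after adjustment 0, leave-one-out 1 to 2, and without SI organoids 1 and 3 together 2. For the difference between tissue effects, leave-one-out gave 0 to 3 and those 2 libraries together 3. Over all genes, control Sto SCs against Sto organoids in SI med gave 1135 calls in the main fit. Median centring gave 1345, the filter on dim genes 1172 of 10915, and the t-test 1510 at an unadjusted p and 0 after adjustment. Except where said, the cause of a change in these counts was not tested. The sex term, the omission of 2 libraries together, the fit without SI organoids SI med 1 and the medium fits within an origin were chosen after seeing the data.

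The replicate numbers are not stated to mark a shared origin. Deviations of same-numbered arrays correlated at 0.23, 0.38 and 0.38 among the SC groups and at -0.06 in organoids, over 2 shared numbers each, and the block changed the number of called claudins only in the comparison of Sto with SI organoids in SI med. A second label field gives the number 1 to SI organoids in SI med 3 and to control SI SCs 3.

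With 1 to 3 arrays a group, the absence of a call is no evidence of equal levels. In simulated data for Cdx2null against control SI SCs (18820 genes), 81% of changes of 2 and 98% of changes of 4 on the log2 scale were called, and for Sto against SI organoids in SI med 64% and 92%. Cldn1 lay below the array median everywhere and Cldn15, Cldn2, Cldn8 and Cldn18 near or below it where lowest.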
